A study of Mus musculus with 10 samples.

Results

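The genes described here are Ch25h, Cyp7b1, Hsd3b7, Cyp27a1 and Gpr183, 5 of 21887 mouse protein-coding genes. They make, remove or sense oxysterols, and they were chosen by name with their called H3K27me3 regions, tag counts and deposited M2 values in view. The mark was read over each gene body with 5 kb on either side, from the regions called in 10 chromatin immunoprecipitation libraries. Since the choice used these measures by state and genotype, all values below are a description, with no test.

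Trimethylation of lysine 27 of histone H3 (H3K27me3) is laid down by a Polycomb repressive complex and lies over silent genes. Oxysterols are oxidised forms of cholesterol. Ch25h adds a hydroxyl group at carbon 25 of cholesterol, Cyp7b1 adds one at carbon 7 of the product, which gives the ligand 7α,25-dihydroxycholesterol, and Hsd3b7 converts that ligand to an inactive form. Cyp27a1 is the mitochondrial sterol 27-hydroxylase, which opens the acidic route of bile acid synthesis. Gpr183, also called EBI2, is the G protein-coupled receptor that guides B cells, T cells and dendritic cells along gradients of this ligand. Ch25h is known as a gene that macrophages switch on in response to interferon and Toll-like receptor ligands.

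Marrow cells of C57BL/6 mice were cultured with 20 ng/ml M-CSF for 7 days and became bone marrow-derived macrophages. KO libraries came from Eif2ak3 fl/fl x LysMcre cells and WT libraries from Eif2ak3 fl/fl cells, so both genotypes carry the floxed Eif2ak3 alleles, the gene of the stress kinase PERK, and only KO carries Cre recombinase. The lysozyme M promoter that drives this Cre is active in myeloid cells, and H3K27me3 calls give no measure of how complete the deletion was. Cells received IL-4 at 20 ng/ml for 24 h (M2), LPS at 20 ng/ml with interferon-gamma at 50 ng/ml for 24 h (M1), or no stimulus (M0). There were 2 KO and 2 WT libraries in M2, 2 and 2 in M1, and 1 and 1 in M0, where a genotype has no replicate. The design text calls the replicates biological. In such bulk libraries, fewer cells with the mark and less of the mark per cell cannot be told apart.

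Library depth was 14.2 to 20.9 megatags in M2, 18.4 to 19.9 in M1, and 14.5 (KO) and 12.6 (WT) in M0. The share of tags inside called regions was 61.0% and 61.3% in KO M2, 41.3% and 56.5% in WT M2, 45.4% and 48.5% in KO M1, 48.3% and 45.0% in WT M1, 64.1% in KO M0 and 62.6% in WT M0. Estimated fragment length was 178 bp in WT M2 replicate 1, KO M1 replicate 1 and WT M1 replicate 2. It was 186 to 190 bp in the other stimulated libraries and 372 and 352 bp in KO and WT M0. WT replicate 1 stood apart in M2 and in M1, with 31.0% and 18.3% of the X chromosome under regions against 0.403% to 0.580% in the other 8 libraries; all 5 genes are on autosomes. Of 12 macrophage markers, 7, among them Csf1r, Adgre1 and Itgam, had no region within 5 kb in any library, while all 8 T and NK cell markers and 6 Polycomb target genes such as Hoxa9 had one in all 10. Over all protein-coding genes, 43.8% had no region within 5 kb in any library and 32.4% had one in all 10. A region needed 21 to 27 tags in a 1000 bp window in the stimulated libraries and 21 and 20 in M0, which is 12.9 to 15.9 tags per kb after scaling to 10 megatags. A gene without a region is thus one where none passed that level and the caller's other filters, not one shown to lack the mark.

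Promoter sequence from RefSeq, build GRCm38.p6 (the same assembly as mm10), was matched for 4 of the 5 genes, and Cyp7b1 had no entry. The 250 bases upstream of the start are shown for 3 genes, 5′ to 3′ on the strand of the gene, because called regions lay over the first of them in part of the libraries and over the others in none. The Cyp27a1 window (chr1:74713285-74713534, plus strand) was upstream of the start in the promoter table but 137 to 386 bases inside the gene body used here, so its sequence is not shown. Capitals mark CpG dinucleotides.
Ch25h, chr19:34475149-34475398, minus strand: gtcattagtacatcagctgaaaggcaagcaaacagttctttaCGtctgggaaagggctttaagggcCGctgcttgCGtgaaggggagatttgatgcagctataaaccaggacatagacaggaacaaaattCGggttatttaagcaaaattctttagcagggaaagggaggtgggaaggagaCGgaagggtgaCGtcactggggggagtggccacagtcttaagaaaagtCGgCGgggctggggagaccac
Hsd3b7, chr7:127800359-127800608, plus strand: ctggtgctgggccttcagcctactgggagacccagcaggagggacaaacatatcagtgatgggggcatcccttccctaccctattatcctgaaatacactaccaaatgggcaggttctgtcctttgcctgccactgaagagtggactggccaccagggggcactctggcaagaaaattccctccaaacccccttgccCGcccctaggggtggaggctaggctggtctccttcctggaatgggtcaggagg
Gpr183, chr14:121965194-121965443, minus strand: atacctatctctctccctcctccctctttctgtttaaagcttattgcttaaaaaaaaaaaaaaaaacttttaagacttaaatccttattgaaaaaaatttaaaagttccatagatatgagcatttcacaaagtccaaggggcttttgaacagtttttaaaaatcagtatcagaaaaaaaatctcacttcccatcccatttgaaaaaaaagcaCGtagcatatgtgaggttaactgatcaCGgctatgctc

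The 4 promoters differ in CpG content. Ch25h has 8 CpGs and Cyp27a1 has 7, Gpr183 has 2 and Hsd3b7 has 1, against a median of 10 over 21263 promoters of protein-coding genes. Gpr183 has a G+C content of 32.0%, against a median of 55.6%. Several motifs, chosen with the sequences in view, were searched on both strands. The cyclic AMP response element TGACGTCA, which ATF and CREB factors bind, starts 61 bases upstream of the Ch25h start and is found in 1.92% of all such promoters. The interferon-gamma activated site TTCNNNGAA is found in the Hsd3b7 window, 21 bases upstream, and in 6.58% of promoters. The STAT6 form of that site, with 1 more base between its arms (5.39% of promoters), the interferon response core, a pair of GAAA 2 bases apart (2.96%), and the ATF4 composite TGATGNAA (3.18%) have no match in the 4 windows.

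The 5 genes fell into 3 kinds. Cyp7b1 had a narrow region at one end of the gene in all 10 libraries, as did some part of the window of 32.4% of protein-coding genes. Ch25h had a region at its promoter in 7 of 10 libraries, and Cyp27a1 had one in its flanks in 5; both belong with the 23.7% of genes whose window was touched in some libraries only. Hsd3b7 and Gpr183 had none in any library, like 43.8% of genes. Ordered by the share of the window under regions, Ch25h came first at up to 21.9%, then Cyp27a1 at up to 6.67% and Cyp7b1 at up to 1.62%; the share is small at Cyp7b1 because its body is 172 kb long.

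Ch25h encodes cholesterol 25-hydroxylase and occupies 1.37 kb of chromosome 19 (34473783 to 34475148, mm10, minus strand). Its body was 65.9% and 61.7% covered in the KO M2 libraries, 0% in both WT M2 libraries, 0% in both KO M1 libraries, 4.54% and 0% in WT M1, 90.3% in KO M0 and 88.7% in WT M0. Cover of the gene itself was thus seen in unstimulated cells and, among stimulated cells, in KO M2, with a trace in 1 WT M1 library. The body was at least 10 percentage points higher in both KO than in both WT M2 libraries, which holds for 2.32% of protein-coding genes. It was at least 10 points lower in every stimulated library than in both M0 libraries, which holds for 0.932% of genes. Both contrasts were among those in view when the gene was listed.

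The edges of the regions show where the difference lies. In KO M2 the region ran from 0.899 and 0.842 kb inside the gene, counted from its start, to 1.52 and 1.47 kb upstream. In WT M2 replicate 2 it began 0.075 kb upstream of the start and ended 1.39 kb upstream, and WT M2 replicate 1 had no region. KO M1 replicate 2 and WT M1 replicate 1 had the same upstream stretch, from 0.067 kb upstream and 0.061 kb inside to 1.58 and 1.21 kb upstream, and the other M1 libraries had no region. In KO and WT M0 it reached 1.23 and 1.21 kb into the gene, almost its whole length, and 1.26 and 1.20 kb upstream. The upstream stretch was therefore called in every state, and the part inside the gene, apart from 0.061 kb in WT M1 replicate 1, in M0 and KO M2 only. Of the 250 upstream bases shown above, 100% lay under the region in both KO M2 libraries, 0% and 70.4% in WT M2, 0% and 73.6% in KO M1, 100% and 0% in WT M1, and 100% in KO M0 and in WT M0.

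**Figure D1:**
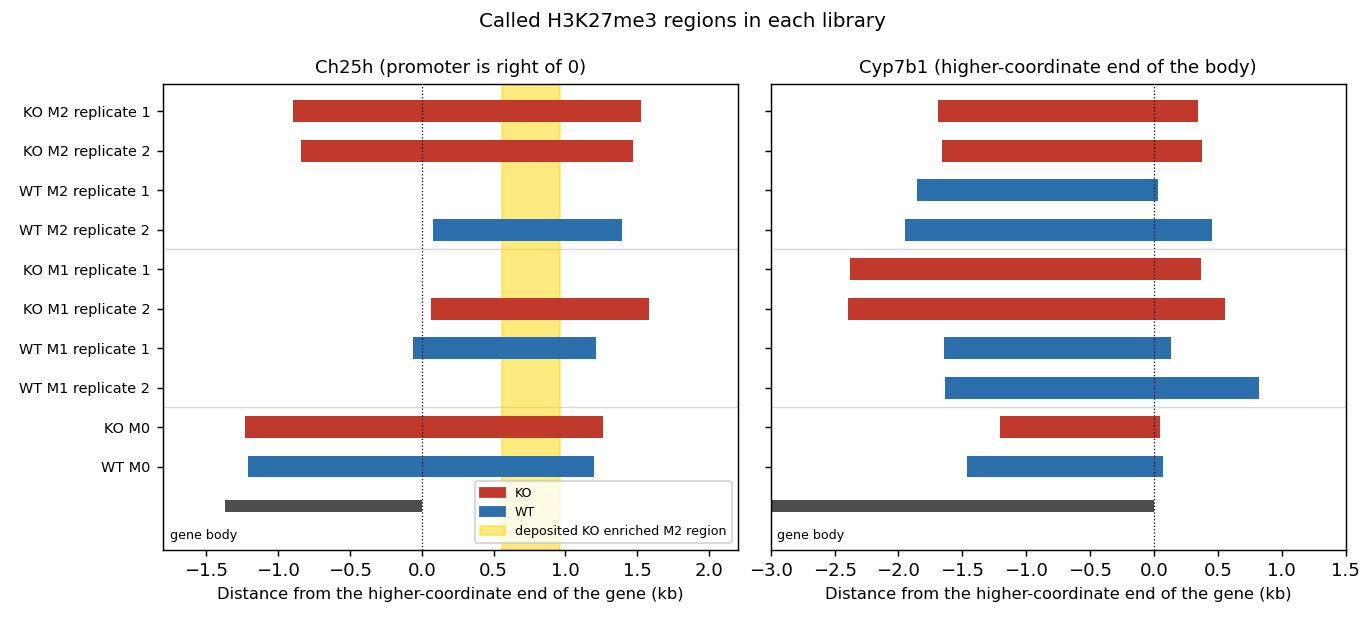
Called H3K27me3 regions (bars, KO red and WT blue) at Ch25h and at the higher-coordinate end of Cyp7b1, 1 row per library, by distance in kb from that end; the dark bar is the gene body and the yellow band the deposited KO enriched M2 region. At Ch25h the 2 KO M2 and the 2 M0 bars extend 0.842 to 1.23 kb to the left of 0, into the gene, while WT M2 replicate 2 and 2 of the 4 M1 libraries have a bar upstream, and at Cyp7b1 all 10 libraries have a bar.

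Measured over the window of 11.4 kb, Ch25h cover was 21.3% and 20.3% in KO M2, 0% and 11.6% in WT M2, 0% and 13.3% in KO M1, 11.2% and 0% in WT M1, 21.9% in KO M0 and 21.2% in WT M0. The KO M2 libraries lay above the WT M2 libraries, by 15.0 points on average (KO 20.8% ± 0.709, WT 5.81% ± 8.21; SD, n = 2 each). With no minimum gap, 3013 of 21887 protein-coding genes had this order of KO above WT. The gap between the nearest libraries was under the 10 points that 1.64% of genes reached in this direction, so Ch25h was not among the latter on the window. Without WT M2 replicate 1, the library with no region, the difference was 9.22 points. With only the 50% of regions scoring highest in each library, KO M2 replicate 1 had 0% and replicate 2 had 20.3%, against 0% and 11.6% in WT M2, so the genotypes overlapped. The 4 M2 libraries (13.3% ± 9.90) and the 4 M1 libraries (6.12% ± 7.12; SD, n = 4 each) overlapped, and the KO and WT M1 libraries overlapped as well.

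The tags in these regions were few. The Ch25h region held 42.3 and 58.1 normalised tags in KO M2, 21.1 in WT M2 replicate 2, 23.4 in KO M1 replicate 2, 18.1 in WT M1 replicate 1, 105.6 in KO M0 and 103.0 in WT M0. Per kb of region this was 17.4 and 25.1 tags in KO M2, 16.0 in WT M2, 15.5 in KO M1, 14.2 in WT M1, 42.4 in KO M0 and 42.7 in WT M0. The WT M2 value and both M1 values stood 1.18 to 2.32 tags per kb above the calling level of their own libraries. KO M2 replicates 1 and 2 stood 3.81 and 10.4 above theirs, and KO and WT M0 27.9 and 26.9. The other 3 stimulated libraries had no region called at Ch25h. WT M2 replicate 1 had the most tags of all libraries and the lowest share of them in regions. After scaling to the tags inside regions, KO M2 replicate 1 (28.6) and WT M2 replicate 2 (28.3) were nearly equal, and KO M2 replicate 2 was at 41.0. KO M1 replicate 2 (31.9) and WT M1 replicate 1 (29.5) were then above KO M2 replicate 1 and below KO M2 replicate 2. KO M0 was at 66.2 and WT M0 at 68.3. The share of tags in regions was 61.0% and 61.3% in KO M2 and 62.6% in WT M0. The unscaled Ch25h densities there were 17.4 and 25.1 against 42.7. The part of the share in the densities was not tested. The stimulated libraries without a Ch25h region were WT M2 replicate 1, KO M1 replicate 1 and WT M1 replicate 2. These were also the libraries with 178 bp fragments and the lowest shares of tags in regions, 41.3%, 45.4% and 45.0%. The part of either property in the calls was not tested.

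The authors' deposited table of KO enriched M2 regions lists 1 region within 5 kb of Ch25h (chromosome 19, 34475709 to 34476109), 0.561 to 0.961 kb upstream of the start. In the authors' deposited table its log2 concentration is 5.39 in KO and 4.33 in WT, a difference of 1.06, and its fold column, also log2, holds 1.29, with a p-value of 0.00707 and a false discovery rate of 0.196. It ranks 759th by p-value among the 1049 regions of the authors' deposited table, which holds only regions with p under 0.01. This stretch lay wholly under called regions in the same 7 libraries that had a region at Ch25h, WT M2 replicate 2 among them, and outside the gene body. None of the authors' 4 deposited tables has a region within 5 kb of the other 4 genes. Lipa, which encodes lysosomal acid lipase and lies 17.2 kb away, had no cover in any library.

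**Figure D2:**
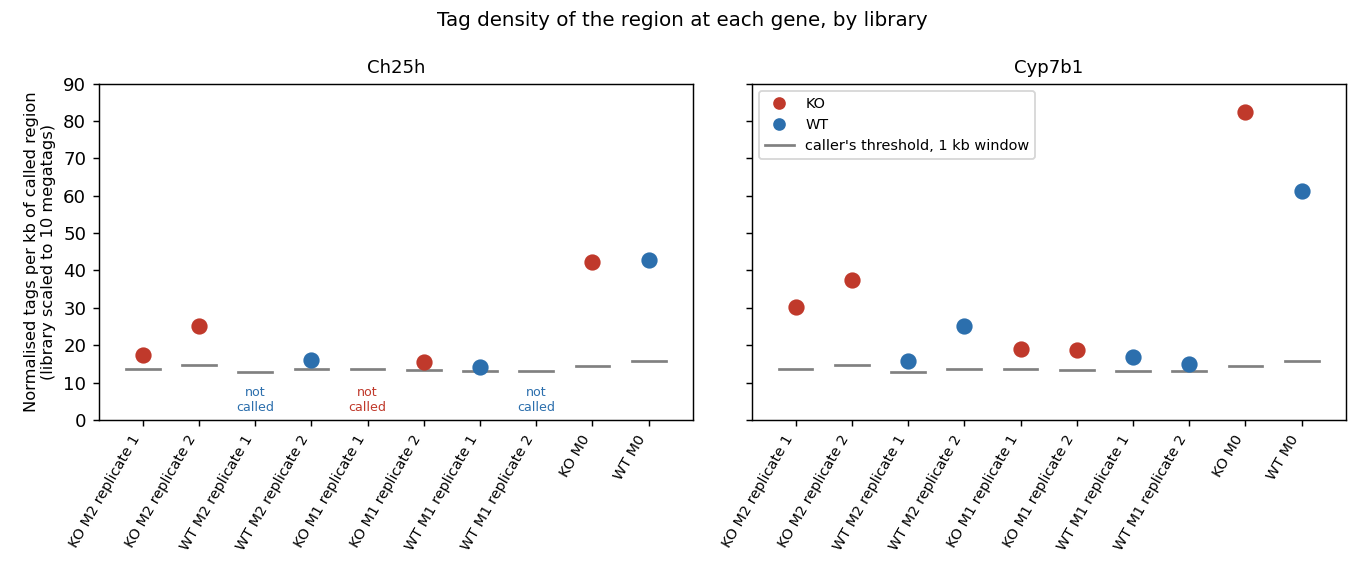
Normalised tags per kb of the called region at Ch25h and Cyp7b1 in each library (points, KO red and WT blue), with grey lines at the tag level a 1 kb window needed to be called in that library. At Ch25h the M0 points stand at 42.4 and 42.7 and the called stimulated points between 14.2 and 25.1; at Cyp7b1 the M0 points stand at 82.4 and 61.2 and the stimulated points between 14.9 and 37.4.

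Cyp7b1, the oxysterol 7α-hydroxylase, spans 172 kb of chromosome 3 (18071944 to 18243890). H3K27me3 was confined to 1.25 to 2.95 kb at the end with the higher coordinate, which is known as the 5′ end of this gene although the gene table gives no strand. No other region touched the body or its flanks in any of the 10 libraries. The region reached 1.69 and 1.66 kb into the gene in KO M2, 1.85 and 1.95 kb in WT M2, 2.38 and 2.39 kb in KO M1, 1.65 and 1.64 kb in WT M1, 1.21 kb in KO M0 and 1.46 kb in WT M0. Its inner edge was thus deeper in both KO than in both WT libraries of M1, and less deep in KO than in WT in M2. How common such orders of edges are over all genes was not counted. The outer edge lay 0.030 to 0.822 kb beyond the gene in the stimulated libraries, and 0.046 and 0.072 kb beyond it in KO and WT M0.

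Tag density at Cyp7b1 differed between states. The region held 30.1 and 37.4 normalised tags per kb in KO M2, 15.6 and 25.3 in WT M2, 18.9 and 18.6 in KO M1, 16.8 and 14.9 in WT M1, 82.4 in KO M0 and 61.2 in WT M0. Every stimulated library was below both M0 libraries, and within M2 and within M1 both KO libraries were above both WT libraries. All 3 orders are common among the 7100 genes with a region in all 10 libraries: 77.9% were lower in every stimulated library than in both M0 libraries, 76.6% were higher in both KO than in both WT libraries in M2, and 22.6% were so in M1. The 4 M2 libraries (27.1 ± 9.13) and the 4 M1 libraries (17.3 ± 1.85; SD, n = 4 each) overlapped, since WT M2 replicate 1 lay among the M1 values; 6.56% of these genes were higher in every M2 than in every M1 library.

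The size of the differences can be set beside these genes. The log2 ratio of mean tag density at Cyp7b1 was 0.72 for KO over WT in M2, against a median of 0.42 over the 7100 genes, and 87.8% of them had a lower ratio. It was 0.24 for KO over WT in M1, against a median of 0.04, with 95.3% of genes lower. For M2 over M1 it was 0.65 against a median of 0.30, with 93.0% of genes lower, and for stimulated over M0 it was -1.69 against -0.81. Cyp7b1 thus lay on the outer side of the median in each comparison and inside the range that holds the middle 90% of genes in all of them but KO over WT in M1, where the upper limit of that range is 0.24. These ratios compare libraries that share samples, and M0 and stimulated libraries differ in fragment length, whose part was not tested.

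Scaling to the tags inside regions, chosen after seeing the data, brought the M2 ratio of KO over WT at Cyp7b1 to 0.42 and the median of the genes to 0.09. With that scaling 33.7% of the genes were higher in both KO M2 libraries, and Cyp7b1 remained one of them, at 49.4 and 61.0 in KO M2 against 37.9 and 44.7 in WT M2. Without WT M2 replicate 1 the unscaled log2 ratio was 0.42, and without WT M2 replicate 2 it was 1.11. Within their own libraries the Cyp7b1 regions ranked above 92.5% and 92.8% of all regions by density in KO M2, 80.3% and 91.5% in WT M2, 85.8% and 85.7% in KO M1, 82.3% and 69.5% in WT M1, 97.0% in KO M0 and 92.6% in WT M0.

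**Figure D3:**
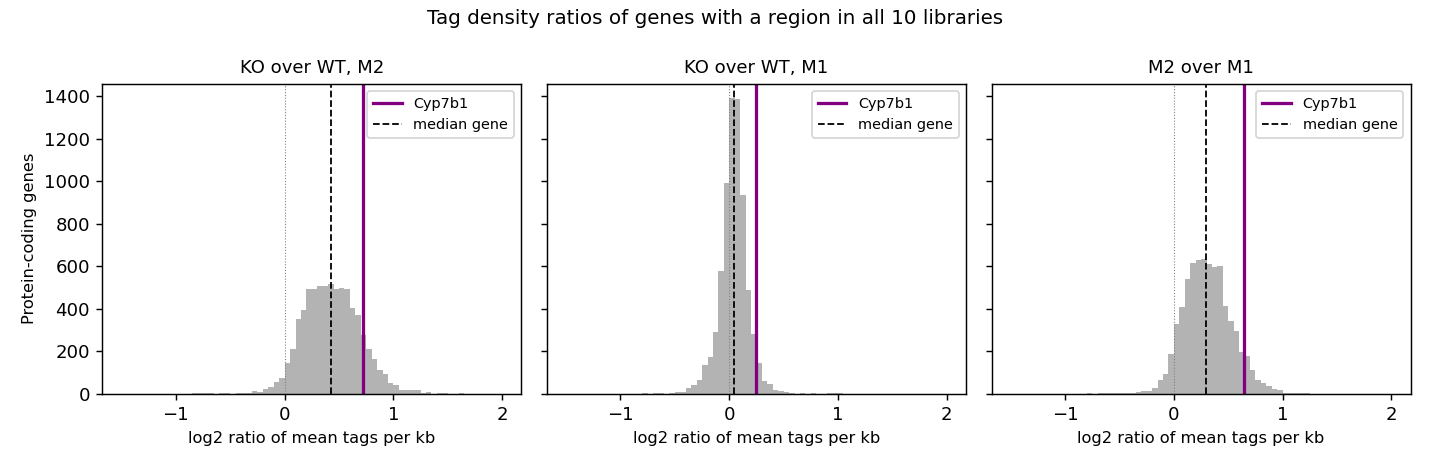
Histograms of the log2 ratio of mean normalised tags per kb for the 7100 protein-coding genes with a region in all 10 libraries, for KO over WT in M2, KO over WT in M1 and M2 over M1; the purple line is Cyp7b1 and the dashed line the median. Cyp7b1 stands to the right of the median in each panel, at 0.72 against 0.42, 0.24 against 0.04 and 0.65 against 0.30.

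Bhlhe22, a transcription factor gene of neurons 14.4 kb from the other end of Cyp7b1, was covered over 69.3% to 100% of its body in all 10 libraries. The rest of the Cyp7b1 body lay between them without a region.

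Cyp27a1 (chromosome 1, 74713148 to 74737897) had 0% of its body under regions in all 10 libraries, and the promoter window inside that body lay outside regions in all 10. In its flanks, cover of the 34.8 kb window was 6.67% and 0% in KO M2, 0% and 1.03% in WT M2, 6.23% and 0% in KO M1, 0% in both WT M1 libraries, 4.47% in KO M0 and 2.88% in WT M0. KO and WT libraries overlapped in M2 and in M1. In WT M0 this was a region of 1.00 kb on the lower-coordinate side, and in the other 4 libraries the region came from the side of Prkag3, a subunit gene of the kinase AMPK, and Wnt6, a secreted signal of development.

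The edge of that neighbouring domain stopped short of Cyp27a1 in every library. The nearest region began 2.68 and 5.70 kb from the gene in KO M2, 9.09 and 4.64 kb in WT M2, 2.83 and 5.42 kb in KO M1, 6.02 and 7.71 kb in WT M1, and 1.99 kb in KO M0, while in WT M0 the nearest was the small region on the other side, at 2.75 kb. In M1 both KO libraries came closer than both WT libraries, and in M2 the genotypes overlapped. The share of all genes with such an order of distances was not counted. Prkag3 was 23.5% to 84.3% covered and Wnt6 51.6% to 73.1%, both in all 10 libraries, while Ttll4 on the other side had none.

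**Figure D4:**
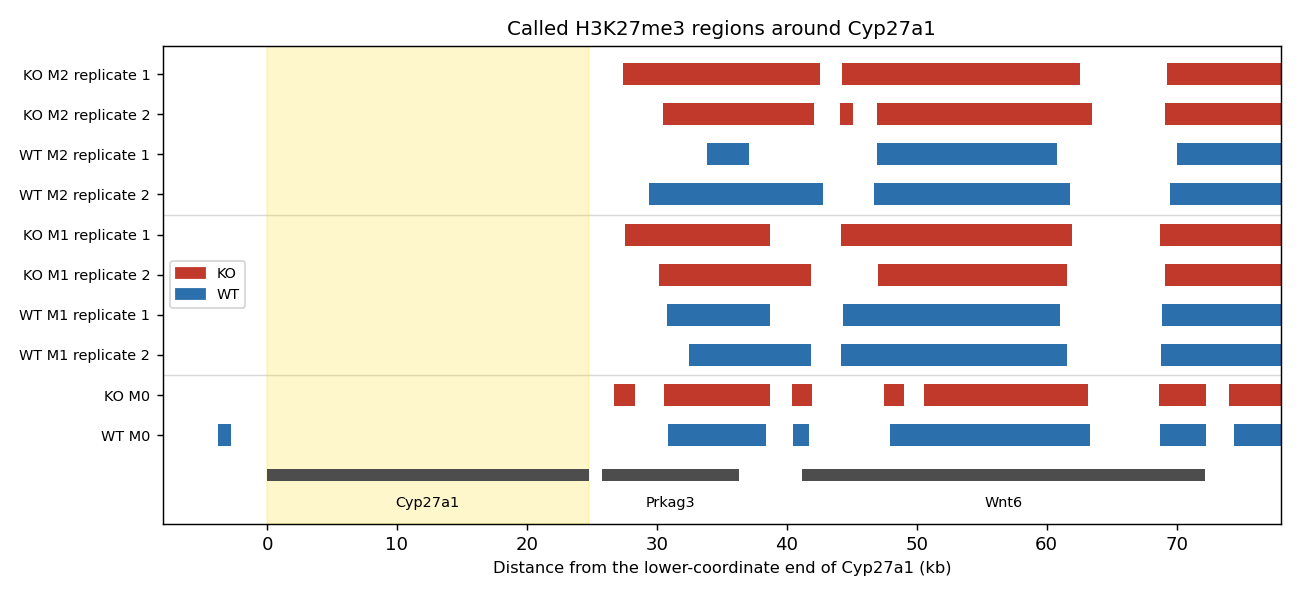
Called H3K27me3 regions (bars, KO red and WT blue) in each library by distance in kb from the lower-coordinate end of Cyp27a1, with the bodies of Cyp27a1 (shaded), Prkag3 and Wnt6 below. No bar enters the Cyp27a1 body, and the first bar on the Prkag3 side begins 1.99 to 9.09 kb beyond it.

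Hsd3b7, the 3β-hydroxysteroid dehydrogenase that clears the Gpr183 ligand, is a gene of 3.19 kb on chromosome 7 (127800609 to 127803802). It had 0% cover of body and window in all 10 libraries. The nearest region lay 10.7 and 10.3 kb away in KO M2, 19.4 and 13.3 kb in WT M2, 19.5 and 9.89 kb in KO M1, 19.4 and 19.2 kb in WT M1, 10.2 kb in KO M0 and 10.6 kb in WT M0. In M2 both KO distances were shorter than both WT distances, and in M1 they overlapped. How many of all genes show such an order of distances was not counted, so it is not read as a trait of Hsd3b7. Setd1a, which encodes a histone methyltransferase of lysine 4 and lies 0.487 kb away, had no cover in any library.

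Gpr183 (chromosome 14, 121952331 to 121965193, minus strand) had 0% cover of body and window in all 10 libraries and the most distant regions of the 5 genes in 7 of them. The nearest region lay 88.1 and 63.6 kb away in KO M2, 87.5 and 65.1 kb in WT M2, 87.1 and 87.0 kb in KO M1, 87.5 and 87.2 kb in WT M1, 81.8 kb in KO M0 and 69.1 kb in WT M0. Ubac2, the gene within whose span Gpr183 lies, and Gpr18, a lipid receptor gene 36.4 kb away, also had no cover in any library. The receptor and its chromosomal surroundings were thus without a called region in all states and both genotypes. In the 3 libraries without a region at Ch25h the nearest region to that gene was farther away, at 267 kb in WT M2 replicate 1, 195 kb in KO M1 replicate 1 and 189 kb in WT M1 replicate 2.

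Other genes were read from 4 lists with 70 genes, 3 of sterol metabolism and 1 of receptors that position immune cells. Of these, 17 had a region within the window in all 10 libraries and 25 in none, beside 32.4% and 43.8% of all genes. Those shares of all genes are also the background for the counts of each list below. For M2 against M1, 0 of the 70 genes were separated by at least 10 points of window cover, beside 0.0366% of all genes higher in M2 and 0.0594% lower. For KO against WT in M2, 2 of 70 genes were higher, or 2.86% beside 1.64% of all genes, and 0 were lower beside 0.832%. For KO against WT in M1, 0 of 70 were separated, beside 0.489% higher and 0.233% lower.

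The 2 genes were Smo, the Hedgehog signal transducer that binds oxysterols, and Mvk, mevalonate kinase of cholesterol synthesis. Window cover of Smo was 38.8% and 43.5% in KO M2 and 16.5% and 25.1% in WT M2, against 41.2% and 35.0% in KO M1, 23.4% and 33.1% in WT M1, 41.0% in KO M0 and 34.9% in WT M0. For Mvk it was 18.8% and 17.1% in KO M2, 0% and 6.58% in WT M2, 0% in both KO M1 libraries, 10.4% and 0% in WT M1, 23.1% in KO M0 and 19.1% in WT M0. At both genes KO M2 was near M0 and WT M2 was below it, and no test was made of either.

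Of the 17 other oxysterol and bile acid enzymes, 7 had a region in all 10 libraries, 5 in none and 5 in some, with a median over the genes of 2.37% mean window cover against 0.601% over all protein-coding genes. The following were chosen after their values were seen. Cyp11a1, which starts steroid hormone synthesis, was covered over 90.1% to 100% of its window, and Cyp46a1, the cholesterol 24-hydroxylase of neurons, over 56.6% to 91.5%. Cyp8b1, the sterol 12α-hydroxylase, had 17.2% and 32.9% in KO M2, 0% and 12.8% in WT M2, 0% and 10.6% in KO M1, 0% and 17.1% in WT M1, 33.8% in KO M0 and 40.8% in WT M0. In Cyp8b1, as in Ch25h, both KO M2 libraries lay above both WT M2 libraries, but by under 10 points. With no minimum gap, 3013 of 21887 protein-coding genes had this order. Cyp7a1, the rate-limiting enzyme of the classical bile acid route, had 5.00% in KO M2 replicate 1 and in KO M1 replicate 1 and 0% in the other 8 libraries.

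Sterol sensors and transporters (18 genes) had 4 genes touched in all libraries and 8 in none, which include Nr1h3, Srebf1, Npc1 and Abca1. Cholesterol synthesis and uptake (21 genes) had 2 touched in all and 10 in none, among them Sqle, the squalene epoxidase. Immune cell positioning receptors (14 genes) had 4 touched in all and 2 in none, the second of these sets being Gpr18 and S1pr2. Ccr7, the homing receptor of dendritic cells and T cells, had window cover of 81.6% and 78.3% in KO M2, 23.1% and 88.7% in WT M2, 79.0% and 92.1% in KO M1, 62.0% and 100% in WT M1, 85.3% in KO M0 and 72.9% in WT M0. The X-linked Nsdhl, Cxcr3, Gpr174 and P2ry10 were touched only in WT replicate 1 of M2 and of M1, the libraries that stood apart on that chromosome.

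By the rule for genes of like pattern, a member had to vary by at least 25 points of window cover, and none of the 5 did. Body cover of Ch25h varied by 90.3 points, and it was used instead, a choice made after seeing the values. The genes with the smallest mean absolute difference from Ch25h over the 10 libraries were Ocstamp (4.95 points), Olfml3 (5.30), Pabpn1l (5.30), Ddit4 (5.86) and Prss33 (6.27). Ocstamp, for example, had 65.2% and 52.8% in KO M2, 0% in both WT M2 and all 4 M1 libraries, 100% in KO M0 and 63.0% in WT M0. A further rule was also chosen after seeing the values, so its share is no independent measure of how rare the pattern is. Body cover of at least 50% in KO M2 and M0 and of 0% in all other libraries was found in 7 genes, or 0.032% of all: Ddit4, Elane, Ifnl3, Ocstamp, Olfml3, Tex19.2 and Tmem239. Ch25h is not one of them by its 4.54% in WT M1 replicate 1.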

How the data were processed

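H3K27me3 chromatin was sequenced in 10 libraries, 5 KO and 5 WT. Build mm10 and the tools HOMER 4.8, DiffBind 2.0.2, Bowtie2 2.4.2, deepTools 3.5.1 and SAMtools 1.10 are named in the submitters' processing notes. Per the file headers, HOMER findPeaks was run on each library alone, with windows of 1000 bp, a joining distance of 2500 bp and a false discovery threshold of 0.001, and its command names no input. The deposited signal of a region is its tag count scaled to 10 megatags, per the file headers, with a score and a clonal fold (a ratio) in further columns. The authors' deposited differential tables hold log2 concentrations, a log2 fold, a p-value and a false discovery rate; their libraries and model are not given in the sources used.

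Regions of a library were merged, and cover was the share of a gene body, or of the body with 5 kb on either side (the window), under them. Genes came from a RefSeq table of GRCm38.p6 (21887 protein-coding genes). Tag density was the tags over the length of the regions touching the window. A gene counted as separated when all libraries of one group exceeded all of the other by at least 10 points (tag density: by any amount). Sequences used 250 upstream bases. Python 3.11.15, numpy 2.4.6, pandas 2.3.3 and matplotlib 3.10.9 were used, and the cover and separation steps were tested on simulated data, where 300 of 300 covers and 200 of 200 planted genes were recovered. Groups follow the sample titles. Genes named beside the 5 members are neighbours within 50 kb, pathway list genes separated by that rule, and genes of like pattern; other list genes named were chosen after their values were seen. The members and lists were chosen with earlier results of these data known. Alternatives were the body alone, flanks of 10 kb, the upper 50% of regions by score, other gaps, each library left out and, chosen after seeing the data, tag density scaled to the tags inside regions. Exon and intron positions were not analysed here.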

Additional observations from a re-analysis of the deposited data

Results flagged for a closer look

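In 12 sets of 4 libraries (M2 or M1, both genotypes) with any spread, 3 single libraries stood far from the others; chance flags about 1 in 20 sets of continuous values, a rate that does not apply where the other 3 libraries are at 0, as in 2 of these sets. Cyp27a1 window cover was 6.67% in KO M2 replicate 1, against 0% to 1.03% in the other M2 libraries. It was 6.23% in KO M1 replicate 1, against 0% in the other M1 libraries. Ch25h body cover was 4.54% in WT M1 replicate 1, against 0% in the other M1 libraries.

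Cyp7b1 body cover differed between the genotypes in opposite directions in M2 and M1. It was 0.985% and 0.967% in KO M2 against 1.08% and 1.13% in WT M2, and 1.38% and 1.39% in KO M1 against 0.958% and 0.952% in WT M1. The difference of KO minus WT in M2 less that in M1 was -0.561 percentage points of a 172 kb body, and it was not tested. On the window, the KO and WT libraries overlapped in M2. With only the 50% of regions scoring highest, the window difference changed sign in both states, from -0.0561 to 0.603 in M2 and from 0.400 to -0.353 in M1. How many of all genes show such opposite directions was not counted.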

How the results depend on the processing

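No paired analysis was possible because the sample titles do not say which KO and WT libraries were prepared together. No result comes from a test, so there was also no fit to add a block to. For libraries with the same replicate number, compared after seeing the data, Ch25h window cover, KO minus WT, was 21.3 and 8.72 points in M2 and -11.2 and 13.3 in M1. Ch25h window cover, KO minus WT in M2, was 15.0 points, 63.8 on the body alone, 7.99 with 10 kb flanks, 4.36 (with overlap of the genotypes) when only the 50% of regions scoring highest were kept (called by score below), and 9.22 to 20.8 with 1 library left out. M2 minus M1 was 7.20, 30.8 on the body alone, 3.83 with 10 kb flanks, 1.86 by score, and 4.53 to 11.6 with 1 library left out. KO minus WT in M1 was 1.06, turned to -2.27 on the body alone and ran from -5.59 to 7.72 with 1 library left out. Flank length and score limits move cover by their construction. Gpr183 was 0 throughout. Cyp7b1 window cover, KO minus WT, was -0.0561 in M2 (0.603 by score; -0.197 to 0.0852 with 1 library left out) and 0.400 in M1 (-0.353 by score). Cyp27a1, KO minus WT in M2, was 2.82 (-0.517 to 6.16 with 1 library left out); M2 minus M1 was 0.368 (-0.0765 with 10 kb flanks, -1.56 by score, -1.21 to 1.93 with 1 library left out).

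Genes separated higher in M2 than M1 numbered 8 (5 with 10 kb flanks, 19 by score, 122 with no gap, 4 with 20 points, 8 to 200 with 1 library left out), and lower 13 (8 on the body, 23 by score, 240 with no gap, 1 with 20 points, 14 to 67 with 1 left out). Genes higher in KO than WT in M2 numbered 359 (3013 with no gap, 71 with 20 points, 377 to 2669 with 1 left out), and lower 182 (355 by score, 1212 with no gap, 60 with 20 points, 205 to 962 with 1 left out); the cause of the changes by score was not tested. The Cyp7b1 log2 density ratio, with 1 library left out, ran from 0.42 to 1.11 for KO over WT in M2, 0.16 to 0.33 in M1 and 0.45 to 0.84 for M2 over M1. With 1 or 2 libraries a group, and a calling level of 12.9 to 15.9 normalised tags per kb, weaker H3K27me3 was not detectable.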
